A study of Saccharomyces cerevisiae with 3 samples.

Results

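The genes described here are the enzymes of haem synthesis of the budding yeast Saccharomyces cerevisiae, HEM1, HEM2, HEM3, HEM4, HEM12, HEM13, HEM14 and HEM15, together with HMX1, which encodes the haem oxygenase that breaks haem down. They were chosen by name and matched by symbol, alias or Entrez identifier to the spots of the arrays. Of these 9 genes, 8 matched a spot, each of them 1 spot, among 5203 named genes in all, and HEM4 was not analysed here. The treated cultures were strain S288C in rich glucose medium at 25 °C. While growing exponentially they were given 2-aminobenzimidazole to 5 mM for 2 h, from a 500 mM stock. The control cultures were the same strain grown for the same time with no treatment. Both cultures were sampled as polyadenylated RNA and hybridised together on each of 3 two-colour arrays, 1 array for each of 3 independent biological samples. Any effect of the stock's solvent cannot be told apart from that of the compound. S288C is known to carry a retrotransposon insertion in HAP1, the gene of a haem-activated transcription factor, which is known to weaken Hap1. Hap1 activity was not measured here.

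Haem is an iron-containing ring that serves cytochromes, catalases, sterol synthesis and nitric oxide detoxification. In yeast its synthesis starts in the mitochondrion from glycine and succinyl-CoA, passes through the cytosol and returns to the mitochondrion, where ferrochelatase inserts iron. Oxygen and haem repress HEM13 through the repressor Rox1, and iron shortage induces HMX1 through the iron-responsive factor Aft1, as known from earlier work on this yeast.

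All values below are log2 ratios, likely of treated over control, so that a value of 1 is a doubling and -1 a halving of the transcript. Neither the direction nor the log base is stated in the table, and if the ratios ran the other way every sign below would turn. Treated RNA carried Cy5 and control RNA Cy3 on every array, so a dye effect on a gene and the treatment cannot be told apart. A value was present for 3062 of the named genes on array 1, for 5044 on array 2 and for 5158 on array 3, and the 3039 genes measured on each of the 3 were tested. Array 2 had the lowest of the weights that limma gives arrays for how closely they follow the fit, 0.61 beside 1.66 for array 1 and 0.99 for array 3. The p-values test a gene's mean ratio against no change, unless another fold change is named. The error used is the gene's spread between these 3 samples, or those of them with a value, moderated by the spread of the other genes.

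Among the haem genes, HEM13 was lower after treatment at nearly the same ratio on every array, and HMX1 was higher on both arrays that measured it. HEM13 fell to a mean of -1.31 ± 0.16 (log2, SD, n = 3), which is 2.49-fold lower. HMX1 stood at 2.10 ± 0.92 (log2, SD, n = 2), which is 4.29-fold higher. The other 6 measured genes of the pathway did not pass the test, and 5 of them changed sign between arrays 2 and 3. With the threshold set at 0.05 after Benjamini-Hochberg adjustment over all tested genes (limma), 1 of the 6 haem genes tested on all 3 arrays was lower, a share of 16.7%, while 9.64% of all tested genes were lower. None was higher (0 of 6), against 8.36% of all tested genes. At an unadjusted p below 0.05 the higher count was also 0, while 495 of the 3039 tested genes were higher and 601 lower. Only 2 of the 6 genes, HEM12 and HEM13, had the same sign on every array, which held for 56.3% of all tested genes.

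**Figure D1:**
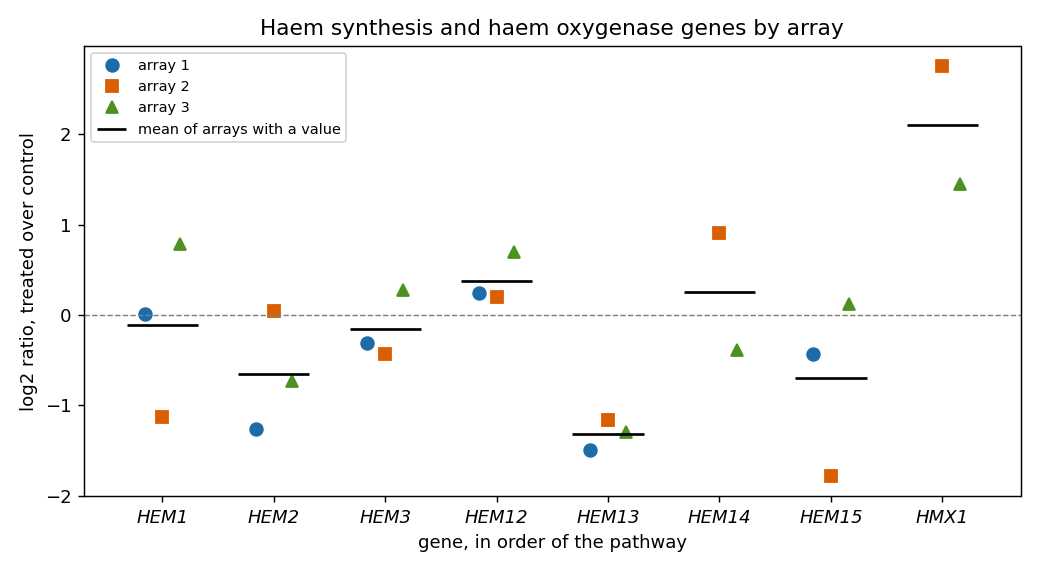
Log2 ratio of treated over control (vertical axis) for the 8 haem genes with a spot, in the order of the pathway with the haem oxygenase gene last (horizontal axis). Points are arrays and bars the mean of the arrays with a value; the 3 points of HEM13 lie close together near -1.3, HMX1 is above 1 on both of its arrays, and HEM1 and HEM15 have their lowest point on array 2.

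The pathway begins with HEM1, the mitochondrial 5-aminolevulinate synthase that joins glycine and succinyl-CoA. HEM1 (YDR232W) had log2 ratios of 0.02, -1.13 and 0.79 on arrays 1, 2 and 3. It was thus near no change on array 1, 2.19-fold lower on array 2 and 1.73-fold higher on array 3. The mean was -0.11 ± 0.97 (SD, n = 3), with a 95% interval of -1.02 to 0.81 and an adjusted p of 0.868 (limma). The spread was large, and 89.0% of the tested genes had a smaller SD over the arrays.

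HEM2 encodes the cytosolic 5-aminolevulinate dehydratase, which makes porphobilinogen. HEM2 (YGL040C) had log2 ratios of -1.26, 0.04 and -0.73 on arrays 1, 2 and 3. It was lower on arrays 1 and 3 and near no change on array 2. The mean was -0.65 ± 0.65 (SD, n = 3; 95% interval -1.41 to 0.11; adjusted p = 0.196, limma). Without array 2 the mean was -0.99, with an adjusted p of 0.0519 (limma).

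HEM3 and HEM12 encode cytosolic enzymes that act between the steps of HEM2 and HEM13. HEM3 (YDL205C), porphobilinogen deaminase, had log2 ratios of -0.31, -0.43 and 0.28 on arrays 1, 2 and 3, so that it stayed within 1.35-fold of the control on each of them. Its mean was -0.15 ± 0.38 (SD, n = 3; 95% interval -0.82 to 0.51; adjusted p = 0.73, limma). HEM12 (YDR047W), uroporphyrinogen decarboxylase, had log2 ratios of 0.25, 0.20 and 0.70 on arrays 1, 2 and 3. HEM12 was the only haem gene above 0 on all 3 arrays, though its mean of 0.38 ± 0.27 (SD, n = 3; 95% interval -0.25 to 1.02; adjusted p = 0.347, limma) did not pass the test. Being above 0 on every array was common, and 25.8% of the tested genes were.

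HEM13 encodes coproporphyrinogen III oxidase, the oxygen-requiring step of the pathway, which in yeast lies in the cytosol. HEM13 (YDR044W) had log2 ratios of -1.49, -1.17 and -1.29 on arrays 1, 2 and 3. The transcript was 2.81-fold, 2.24-fold and 2.44-fold lower on these arrays, at least 2-fold on each, which held for 3.75% of the tested genes. Being below 0 on every array held for 30.6%. The mean of -1.31 ± 0.16 had a 95% interval of -1.93 to -0.70 and an adjusted p of 0.0213 (limma). HEM13 ranked 149 from the lowest mean among the 3039 tested genes, and only 8.75% of these genes had a smaller SD. Its place among all measured genes was also alike on the arrays: 5.98% of the genes on array 1, 8.60% on array 2 and 7.35% on array 3 had lower ratios.

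The call of HEM13 needed array 1 and array 3, although its value did not depend on them. Without array 1 the mean was -1.23 (adjusted p = 0.165, limma; unadjusted 0.013) and without array 3 it was -1.33 (adjusted p = 0.132; unadjusted 0.0112). Neither of these fits with 2 arrays called any gene: 0 of 5021 and 0 of 3040 genes passed in limma, while at an unadjusted p below 0.05 the first had 471 higher and 533 lower and the second 304 higher and 411 lower. Without array 2 the mean was -1.39 (adjusted p = 0.0144, limma). There 24.2% of all genes passed in either direction. With arrays weighted, HEM13 stood at -1.37 (adjusted p = 0.0092, limma), among 14.1% of tested genes that were lower and 26.4% that passed either way. HEM13 did not pass a test against a 1.5-fold change, in which 29 of the 3039 tested genes were higher and 16 lower.

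**Figure D2:**
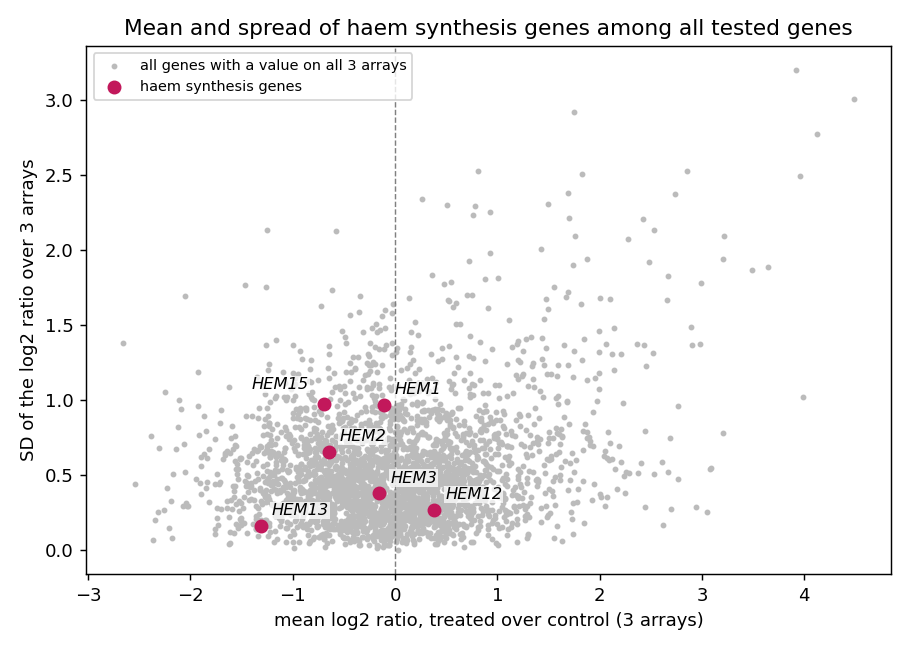
Mean log2 ratio of treated over control (horizontal axis) and SD over 3 arrays (vertical axis) for the 3039 tested genes (grey) and the 6 haem synthesis genes among them (coloured). HEM13 lies at the lower left, with a mean of -1.31 and an SD of 0.16, while HEM1 and HEM15 have SDs of 0.97 and 0.98.

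The last steps return to the mitochondrion. HEM14 (YER014W), protoporphyrinogen oxidase, had no value on array 1 and log2 ratios of 0.90 on array 2 and -0.38 on array 3. It was higher on array 2 and lower on array 3. Its mean was 0.26 ± 0.91 (SD, n = 2; adjusted p = 0.724, limma, fit that admits genes measured on 2 arrays). HEM15 (YOR176W), the ferrochelatase that inserts iron into protoporphyrin, had log2 ratios of -0.44, -1.78 and 0.12 on arrays 1, 2 and 3. It was 3.43-fold lower on array 2 and within 1.35-fold of the control on arrays 1 and 3. The mean of HEM15 was -0.70 ± 0.98 (SD, n = 3; 95% interval -1.62 to 0.22; adjusted p = 0.243, limma), and without array 2 it was -0.16.

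HMX1 encodes a haem oxygenase of the endoplasmic reticulum, which opens the haem ring and frees its iron. HMX1 (YLR205C) had no value on array 1 and log2 ratios of 2.75 on array 2 and 1.45 on array 3. It was 6.74-fold higher on array 2 and 2.73-fold higher on array 3. On both arrays HMX1 was the highest of the haem genes, above 99.5% of all genes on array 2 and 93.5% on array 3. Being at least 2-fold higher on both of these arrays held for 4.04% of the 5021 genes that had a value on each.

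Since HMX1 lacked a value on array 1, its test came from the fit of the 5043 genes measured on 2 or 3 arrays, in which the spread is moderated by that of the other genes. There HMX1 rose, with a mean of 2.10 (95% interval 1.12 to 3.08; adjusted p = 0.0253, limma) and rank 64 from the highest mean. In the same fit 5.39% of all genes were higher. HEM13 was lower in that fit too (adjusted p = 0.0232, limma), as were 5.83% of all genes. Of the 8 haem genes 2 thus passed, and 11.2% of all genes passed in either direction. The call of HMX1 was lost in the fit of arrays 2 and 3 alone, which rests on the same 2 values (adjusted p = 0.14, limma; unadjusted 0.0032).

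The order of the 6 genes on all 3 arrays, by mean, was HEM12, HEM1, HEM3, HEM2, HEM15 and HEM13. No pair of neighbours in this order kept its order on all 3 arrays. HEM15 exceeded HEM13 by 1.05 on array 1 and 1.41 on array 3 and lay 0.61 below it on array 2, a mean difference of 0.62 ± 1.08 (log2, SD, n = 3). HEM2 and HEM15 differed by 0.05 ± 1.54 in the mean, with HEM2 above HEM15 on array 2 alone. The ends of the order did keep apart: HEM12 exceeded HEM13 by 1.74, 1.37 and 1.98 on arrays 1, 2 and 3, a mean difference of 1.70 ± 0.31. Differences between haem genes are given as a description and were not tested. HMX1 exceeded HEM13 by 3.92 on array 2 and 2.74 on array 3.

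Of the 8 haem genes, 4 were higher on array 2 than on array 3, or 50%, beside 51.6% of all genes measured on both. HEM1 and HEM15, the enzymes of the first and the last step, were lower on array 2 than on array 3 by nearly the same amount, with array 2 minus array 3 at -1.92 for HEM1 and -1.90 for HEM15. Only 2.87% and 2.97% of the 5021 genes had a more negative difference. HMX1 and HEM14 leaned the other way, at 1.30 and 1.29, above 92.7% and 92.4% of the genes. HEM13 differed by 0.12, beside an SD of 0.97 over all 5021 genes. Grouped by compartment, the 3 measured mitochondrial steps had medians of -1.13 on array 2 and 0.12 on array 3. HEM14, 1 of these 3, ran the other way. The 4 measured cytosolic steps had medians of -0.20 and -0.23, though array 2 minus array 3 was 0.77 for HEM2, -0.71 for HEM3 and -0.49 for HEM12. The genes of a compartment thus did not share a pattern.

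**Figure D3:**
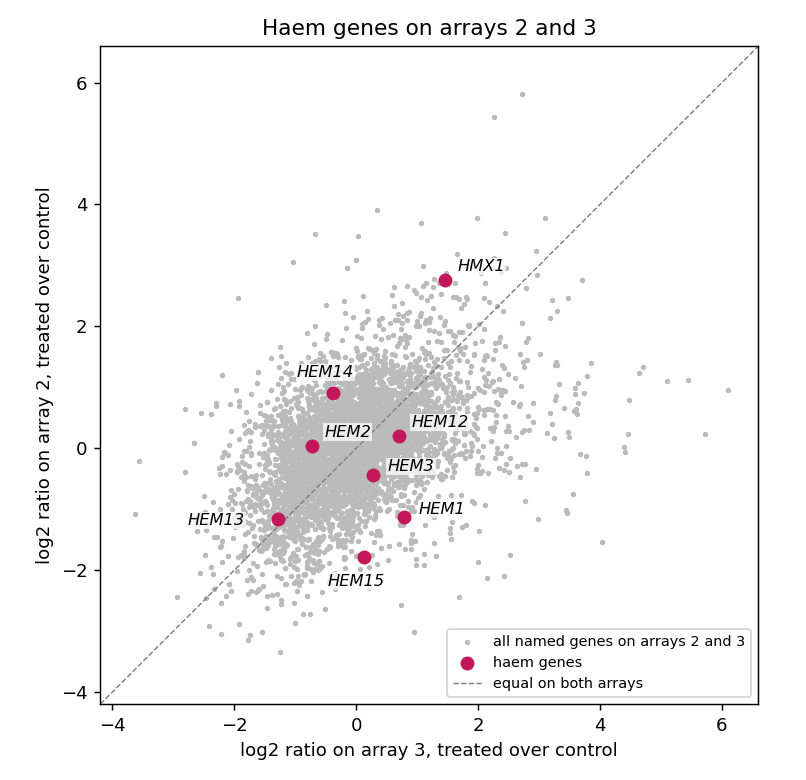
Log2 ratios of treated over control on array 3 (horizontal axis) and array 2 (vertical axis) for the 5021 named genes measured on both (grey) and the 8 haem genes (coloured), with the dashed line marking equal values. HMX1 lies at the upper right, HEM13 on the line at the lower left, and HEM1 and HEM15 well below the line.

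Haem use and supply were followed in further gene lists. Because HMX1 belongs to the Aft1 response, it was set beside 23 other genes of iron uptake and iron use, 21 of them tested. Of these 21 genes, 7 were higher and 1 lower at the adjusted threshold (limma), with a median of 1.01, while the median of all tested genes was -0.04. The higher share was 33.3%, beside 8.36% of all tested genes, and the lower share 4.76%, beside 9.64%. FIT2, a cell wall protein that retains siderophores, stood at 2.41, 5.82 and 2.72 on arrays 1, 2 and 3, and ENB1, an enterobactin transporter, at 1.87, 2.67 and 1.09. Both rose (adjusted p = 0.016 and 0.0186, limma) and were highest on array 2. HMX1, with no value on array 1, was likewise higher on array 2 than on array 3. VHT1, a biotin transporter, also rose, with its lowest value on array 2 (3.17, 0.86 and 3.27 on arrays 1, 2 and 3; adjusted p = 0.0213, limma). So did ISU1, another gene of this list (1.95, 1.08 and 1.81; adjusted p = 0.0174, limma). On array 2, 20 of the 23 genes, or 87%, lay above their own value on array 3, as did 51.6% of all genes measured on both. The regulator AFT1 was not analysed here, and its paralogue AFT2 had 0.12 on array 2 and -0.33 on array 3. TIS11, also called CTH2, whose product binds messenger RNAs of iron-using pathways, rose to 1.11 ± 0.57 (SD, n = 3; adjusted p = 0.0477, limma), a call lost in the fit that admits genes on 2 arrays (0.0542), and without array 2 (0.0907) or either other array.

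Supply of the starting materials and iron to the mitochondrial enzymes was described by 10 genes, of which 8 were tested, 1 was higher and 0 lower (limma). The higher share of 12.5% was near the 8.36% of all tested genes. At an unadjusted p below 0.05, 3 of the 8 were higher and 0 lower, as were 495 and 601 of the 3039 tested genes. The gene that rose was MRS4, a carrier that brings iron into the mitochondrion, with 1.05, 1.01 and 0.98 on arrays 1, 2 and 3 (mean 1.01 ± 0.04, SD, n = 3; adjusted p = 0.0379, limma). MRS4 is also a member of the iron regulon list. HEM25, the mitochondrial glycine carrier for haem synthesis, had 0.88 on array 2 and -0.06 on array 3 and no value on array 1. The median of the 8 tested genes was 0.27. PUG1, a plasma membrane transporter of protoporphyrin and haem, had 1.28, 0.79 and 1.63 on arrays 1, 2 and 3 and rose to 1.23 ± 0.42 (SD, n = 3; adjusted p = 0.0302, limma).

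A side branch of the pathway leads to sirohaem, the cofactor of sulfite reductase. MET10, a subunit of that enzyme, had 2.17, 0.64 and 3.61 on arrays 1, 2 and 3 and rose to a mean of 2.14 ± 1.48 (SD, n = 3; adjusted p = 0.0329, limma). MET5, the subunit that carries sirohaem, had 2.08, -1.24 and 0.72 (adjusted p = 0.545, limma). The enzymes of sirohaem synthesis itself, MET1 and MET8, had no value on array 1. They were near no change on array 2 (-0.07 and -0.003) and higher on array 3 (1.32 and 1.37). All 4 genes were lower on array 2 than on array 3, the opposite of HMX1.

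Of 12 tested genes of proteins that use haem, 3 were lower and 1 higher (limma), with a median of -0.12. The lower share was 25%, beside 9.64% of all tested genes, and the higher share 8.33%, beside 8.36%. The lower genes were YHB1, the flavohaemoglobin that detoxifies nitric oxide (-3.27, -1.08 and -3.63 on arrays 1, 2 and 3), CYT1, cytochrome c1 (-1.57, -1.97 and -0.80), and the ferric reductase gene FRE1 (-1.37, -0.65 and -1.48). The higher gene was FRE2, another ferric reductase, with 1.22, 1.57 and 1.15. Their adjusted p-values were 0.0177, 0.0248, 0.0355 and 0.0217 (limma). FRE1 and FRE2 are also in the iron regulon list. Of the genes for haem attachment to cytochrome c and for haem a synthesis, COX15, the haem a synthase, had -0.79, -0.88 and -0.86 on arrays 1, 2 and 3 and narrowly missed the threshold (adjusted p = 0.0631, limma), and CYT2, the haem lyase of cytochrome c1, stood at -0.21 ± 0.38. Neither of these 2 tested genes passed. At an unadjusted p below 0.05 (limma), 1 of the 2 was lower, as were 601 of the 3039 tested genes. CYC3, the haem lyase of cytochrome c, leaned the other way, with 1.08 on array 2 and 1.07 on array 3 and no value on array 1, and did not pass in the fit that admits genes on 2 arrays (adjusted p = 0.0906, limma).

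The regulators that answer to haem and oxygen, and the genes under them, were described next. HAP1 had -0.19, 0.19 and 0.25 on arrays 1, 2 and 3 (adjusted p = 0.856, limma). ROX1, the repressor of HEM13 and other hypoxic genes, had 0.13 on array 2 and -0.26 on array 3 and no value on array 1. Of the 12 regulators, 4 were tested and 0 passed in limma, with 0 also in the fit that admits all 12. Of all genes, 18.0% passed in the first of these fits and 11.2% in the second, so 0 among so few regulators says little. At an unadjusted p below 0.05, 1 of the 4 was lower, as were 601 of the 3039 tested genes. The mean furthest from 0 among the 4 was that of TUP1, a general corepressor that acts with Rox1, at -0.98 ± 1.03 (SD, n = 3; adjusted p = 0.131), followed by its partner CYC8 at -0.60 ± 0.29 (adjusted p = 0.159). Of the 7 tested genes that, like HEM13, are known to be repressed by oxygen, COX5B, the hypoxic form of a cytochrome oxidase subunit, rose to 1.25 ± 0.35 (SD, n = 3; adjusted p = 0.0272, limma), and 0 were lower (1 at an unadjusted p below 0.05). The higher share was 14.3%, beside 8.36% of all tested genes. Of all tested genes 9.64% were lower, and 601 of the 3039 at an unadjusted p below 0.05. The median of these 7 genes was 0.20, beside -1.31 for HEM13, but they did not move as a set. ANB1 (-0.27, -1.67 and -0.67 on arrays 1, 2 and 3) and OLE1 (-0.97, -0.21 and -0.61) were below 0 on every array, like HEM13. CYC7 (0.49, 0.54 and 0.10) was above 0 on every array, like COX5B. ANB1, OLE1 and CYC7 did not pass (adjusted p = 0.114, 0.176 and 0.352, limma). Of the 8 tested respiratory genes under the Hap factors, CYT1 and COX6, another cytochrome oxidase subunit, were lower and 0 were higher. Of all tested genes 8.36% were higher. At an unadjusted p below 0.05 the higher count in the list was also 0, beside 495 of the 3039 tested genes. The lower share was 25%, beside 9.64% of all tested genes. COX6 had -1.13, -1.23 and -1.76 on arrays 1, 2 and 3 and fell to a mean of -1.37 ± 0.33 (SD, n = 3; adjusted p = 0.0214, limma). The median of this list was -0.66, with array medians of -0.52, -1.30 and -0.13, so that array 2 was the lowest, as for HEM1 and HEM15.

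**Figure D4:**
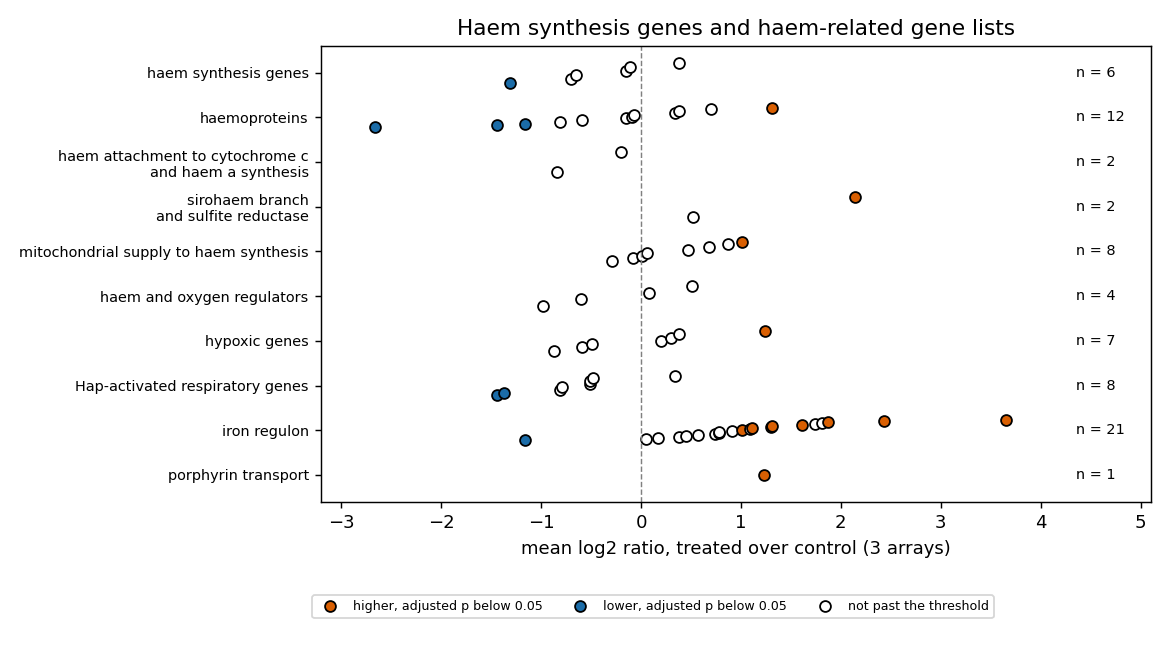
Mean log2 ratio of treated over control over 3 arrays (horizontal axis) for each tested gene of the haem pathway and of 9 haem-related lists (rows), coloured where the adjusted p was below 0.05. HEM13 is the coloured point of the top row at -1.31, and most coloured points to the right belong to the iron regulon, up to FIT2 at 3.65.

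The ratios closest to those of HEM13 over the 3 arrays belonged to GSP1, a nuclear transport GTPase (root mean square difference 0.06 on the log2 scale), VRG4, a GDP-mannose transporter (0.07), and UTP5, a ribosome assembly factor (0.08). In all, 61 of the other tested genes lay within 0.3 of HEM13. The closest to HEM12, the haem gene with the highest mean among the 6, were THI22 (0.07), SOL3 (0.08) and SOK1 (0.08), with 186 genes within 0.3. These are likenesses over 3 values and were not tested.

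The neighbours of the haem genes on the chromosomes were described as well, on either side and whichever strand they lie on. Of 16 neighbouring genes, 10 had a value and 6 were tested. YCX1, next to HEM3, rose to 1.08 ± 0.27 (SD, n = 3; adjusted p = 0.0359, limma) while HEM3 stood at -0.15. The other 5 did not pass, and 18.0% of all tested genes passed in either direction. Next to HEM13, NRG1 had 0.46, 0.14 and 0.65 on arrays 1, 2 and 3, and RPC11 had -0.27 on array 2 and -0.94 on array 3. Next to HMX1, ENT2 had -0.39, -0.11 and -0.70 on arrays 1, 2 and 3, and QRI5 had 0.09 on array 2 and -0.94 on array 3. None of these 4 neighbours was as far from 0 as the haem gene beside it on any array that measured both. HEM13 and HMX1 had the means furthest from 0 among the haem genes, and elsewhere this did not hold on every array. BAP3, next to HEM12, had 1.20, -0.16 and 1.49 on arrays 1, 2 and 3, beside 0.25, 0.20 and 0.70 for HEM12.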

How the data were processed

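The deposited table holds a log ratio per spot and array, taken here as log2. Per the labels, the authors applied a LOWESS normalisation to spots with flag value 0. How background was corrected, and with which scanner and software, is not given in the sources used here, and no intensities were used, so nearness to background is unknown and the number of arrays limits precision. Of 6272 spots, 5308 had 1 gene symbol, 0 had several and 964 none here. Symbols came from the platform annotation and, for 5304 spots, from RefSeq assembly R64. Where a gene had several spots, their mean on that array was taken.

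Each gene's ratios were compared with 0 by limma 3.58.1, run in R 4.3.3 (intercept only, eBayes, two-sided, Benjamini-Hochberg, threshold 0.05). The method was also tested on simulated ratios drawn with the spread of this fit. That simulation had no dye effect, unequal arrays or missing values, so it does not bear on those limits of these arrays. The haem genes and the gene lists were chosen with earlier results of these data known. Named genes were all members and up to 3 highest and 3 lowest called genes of each list. With none called in a list, the 2 with the largest absolute mean were named. Also named were 6 fixed regulators and transporters, the 3 nearest genes of 2 members and the chromosomal neighbours. Other genes named were picked with their values in view. The settings varied were centring, scaling, robust variance, array weights, genes on at least 2 arrays, unnamed spots, single spots, stricter tests and leaving out each array.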

Additional observations from a re-analysis of the deposited data

How the results depend on the processing

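The haem genes called numbered 1 with all arrays, and 1 with centring, scaling, robust variance, array weights, unnamed spots, single spots or natural logs. The count was 2 (1 higher, 1 lower) with genes on at least 2 arrays, because HMX1 could then be tested. It was 0 in the test against a 1.5-fold change, in which 29 of all 3039 tested genes were higher and 16 lower. It was also 0 at an adjusted p below 0.01, where the count over all genes is not given here. Leaving out each array in turn it ranged from 0 to 1. Read as control over treated, 1 was higher and 0 lower by construction. The haem-related list genes called numbered 14 (10 higher, 4 lower), with 7 of the higher ones in the iron regulon list. Of all tested genes, 18.0% were called in either direction. Some genes are in several lists, and the distinct list genes tested were not counted, so the 14 is not given as a share. On leaving out arrays the list genes called numbered 0 to 15 (0 to 11 higher, 0 to 4 lower). The 15 came without array 2, where 24.2% of all genes were called in either direction. The count was 0 without array 1 or array 3. The cause of that loss was not tested, but these fits called no gene at all. The mean of HEM1 changed sign with array weights (0.0379) and ranged from -0.556 to 0.404 on leaving out arrays, and that of HAP1, 0.0805 with all arrays, ranged from -0.00393 (without array 3) to 0.218. If the values were natural logs, HEM13 would be 3.72-fold lower and HMX1 8.18-fold higher. The promoter motif counts were not run. Each ratio already sets a treated culture against the control on its own array, so the test is itself paired by array and no further replicate block could be fitted.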
